A study of Mus musculus with 2 samples.

Results

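The genes described here are the mouse atypical cadherins Fat1, Fat2, Fat3 and Fat4, the Dachsous cadherins Dchs1 and Dchs2, the Golgi kinase Fjx1, and the core planar polarity genes Vangl1, Vangl2 and Celsr1. They were chosen by name: the gene identifiers of both deposited gene tables, without version numbers, were matched to mouse GENCODE symbols, and all 10 members were found among 43346 genes. RNA was sequenced from kidneys of B6NCrl mouse embryos at embryonic day 14.5, with no allele or treatment named, as 2 libraries of 1 group, called replicates 1 and 2. Each library was made from 10 ng of RNA longer than 200 nt from the 2 kidneys of a single pup, and the labels nevertheless give the sex of each sample as a mixture of both. There is no second condition, so the data give the level of each gene in whole kidney and the difference between a pair of libraries. In that difference embryo and library preparation cannot be told apart, and no test between conditions can be made.

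Fat and Dachsous proteins are giant cadherins of the cell surface that bind each other across neighbouring cells. In Drosophila, Four-jointed, the counterpart of Fjx1, phosphorylates cadherin domains of both in the Golgi and so tunes their binding. The core planar polarity proteins form a separate system, in which Frizzled and Dishevelled of a cell face Vangl and Prickle of its neighbour, with Celsr cadherins bridging the membranes. In the mouse kidney, loss of Fat4 gives cystic tubules, and Fat4 and Dchs1 act in signalling between stroma and nephron progenitors.

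Replicate 1 came with 29718428 expected counts, 28429080 of them on genes, and replicate 2 with 29204212, of which 27758872 were on genes. An expected count is the estimated number of reads of a gene after reads that match several features have been shared out. Markers of the labelled tissue were present: 10 of 10 stromal, 8 of 8 nephron progenitor, 8 of 8 ureteric and 6 of 6 endothelial markers reached 1 TPM (a level per transcript length, scaled to the same sum in each library) in both libraries. Of markers of neighbouring tissues, 3 of 7 neuronal genes (summed level 22.3 TPM in replicate 1 and 18.6 TPM in replicate 2), 3 of 6 skeletal muscle genes (35.0 and 34.1 TPM) and 1 of 7 adrenal and gonad genes (5.30 and 4.77 TPM) reached it. Of the adrenal and gonad genes, Mc2r was the one that reached it, at 3.01 TPM in replicate 1 and 3.19 TPM in replicate 2. Below the floor were Star (0.92 and 0.97 TPM), Cyp11a1 (0.68 and 0.35 TPM), Ddx4 (0.69 and 0.23 TPM) and Amh (0 and 0.03 TPM). Cyp17a1 and Dazl were at 0 in both libraries. The part of other tissues in the levels below was not tested. Whole kidney was sequenced, so fewer cells of a type and less RNA per cell cannot be told apart.

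In mean TPM, Fat1 was the only member above the median of detected protein-coding genes, and Fat2 and Dchs2 were almost absent. At a floor of 1 TPM in both libraries 8 of 10 members were detected, against 59.0% of 21474 protein-coding genes and 33.1% of all genes. The median of the members' mean levels was 10.2 TPM for the 8 detected members, against 18.3 TPM for the 12669 detected protein-coding genes (quartiles 7.05 and 45.8 TPM). Fat1 stood above 65.1% of those genes, Vangl2 above 41.8%, Dchs1 above 38.8%, Vangl1 above 36.0% and Fat4 above 31.4%. Fjx1 stood above 24.4%, Celsr1 above 20.4% and Fat3 above 8.13%. In descending order of mean TPM the members ran Fat1, Vangl2, Dchs1, Vangl1, Fat4, Fjx1, Celsr1, Fat3, Dchs2 and Fat2. The ranges of the 2 libraries overlapped for 6 of the 9 neighbouring pairs in that order. They were separate between Fat1 and Vangl2, between Celsr1 and Fat3, and between Fat3 and Dchs2, and the ranges of all neighbours from Vangl2 down to Celsr1 overlapped. Within each library Fat4 stood above Fjx1 and Fjx1 above Celsr1, whereas the neighbours from Vangl2 to Fat4 changed order between the libraries.

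**Figure D1:**
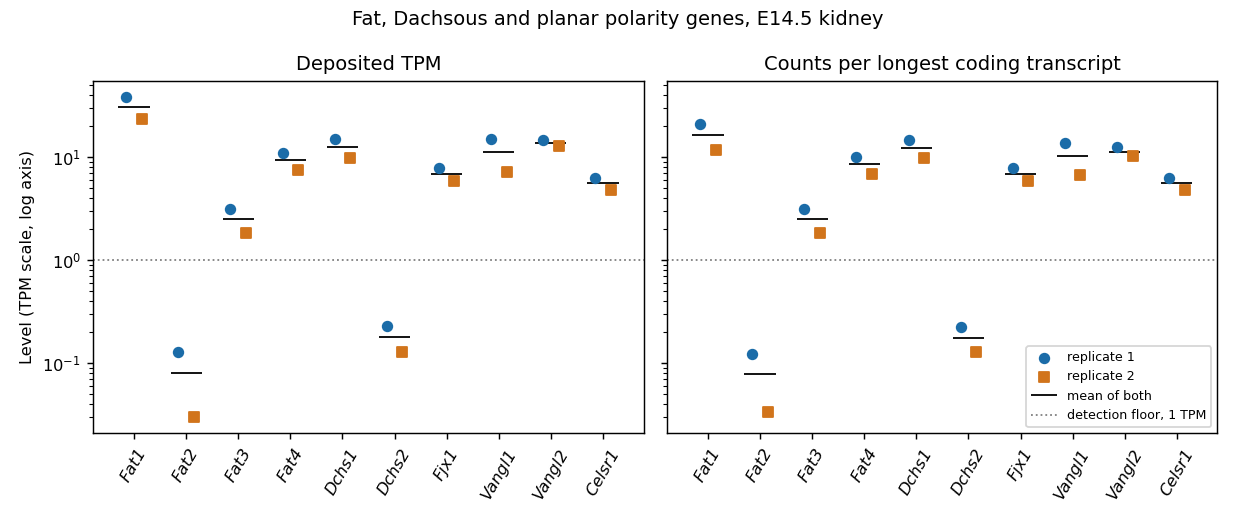
Level of each member in replicate 1 (circles) and replicate 2 (squares), with the mean as a bar, on a log axis; the left panel has the deposited TPM and the right panel the gene's counts per length of its longest coding transcript, on the same scale. Fat1 has the highest mean in both panels, at 31.0 TPM on the left and 16.4 on the right, and Fat2 and Dchs2 lie under the dotted floor of 1 TPM in both.

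Fat1 (ENSMUSG00000070047.8), which in mammals also binds actin regulators through its cytoplasmic tail, is encoded on chromosome 8, 44935447 to 45052257, plus strand (GRCm38), and its longest coding transcript has 27 exons and 14814 nt. Its level was 38.3 TPM in replicate 1 and 23.7 TPM in replicate 2, or 31.0 ± 10.3 TPM (SD, n = 2). Replicate 1 was the higher library, and the lower value of Fat1 still lay above both values of every other member. The ratio of replicate 1 to replicate 2 from its counts was 1.62 (95% interval 1.55 to 1.68, counting error only).

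More of the Fat1 level was assigned to a short transcript than to the full-length one. Fat1-203, with 4770 nt in the tables or 32.2% of the length of Fat1-205, held 56.3% of the Fat1 TPM in replicate 1 and 67.0% in replicate 2, at 21.6 and 15.9 TPM. The full-length coding transcript Fat1-205 held 35.5% in replicate 1 and 28.2% in replicate 2, at 13.6 and 6.69 TPM. In reads the order was the other way round: Fat1-205 took 3906 counts in replicate 1 and 2216 in replicate 2, against 1964 and 1670 for Fat1-203. The later GENCODE release M21 gives the same transcript identifier 14651 nt in place of 4770 nt, so the level assigned to it is a level per a length that the later annotation does not keep. With all Fat1 counts set against the 14814 nt of Fat1-205, Fat1 came to 21.1 in replicate 1 and 11.8 in replicate 2 on the TPM scale, a mean of 16.4 ± 6.59 (SD, n = 2). On that scale the ranges of Fat1 and Dchs1 overlapped, although Fat1 was the higher of the pair in both libraries.

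In M21, Fat1-203 differs from Fat1-205 in its coding sequence by 1 exon of 36 nt, exon 26 of its 27, which adds 12 codons close to the 3′ end of the coding sequence, where the cytoplasmic tail is encoded. The exon lies at chr8:45049842-45049877 on the plus strand and is also in Fat1-206. It is shown in capitals between the 30 coding bases on either side, because it is the coding difference between the leading Fat1 transcripts in that release. Whether the 4770-nt form of the tables held it is not known from the sources used here.
Fat1 exon: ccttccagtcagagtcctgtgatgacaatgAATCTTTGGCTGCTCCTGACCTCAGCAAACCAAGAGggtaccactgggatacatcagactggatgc

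**Figure D2:**
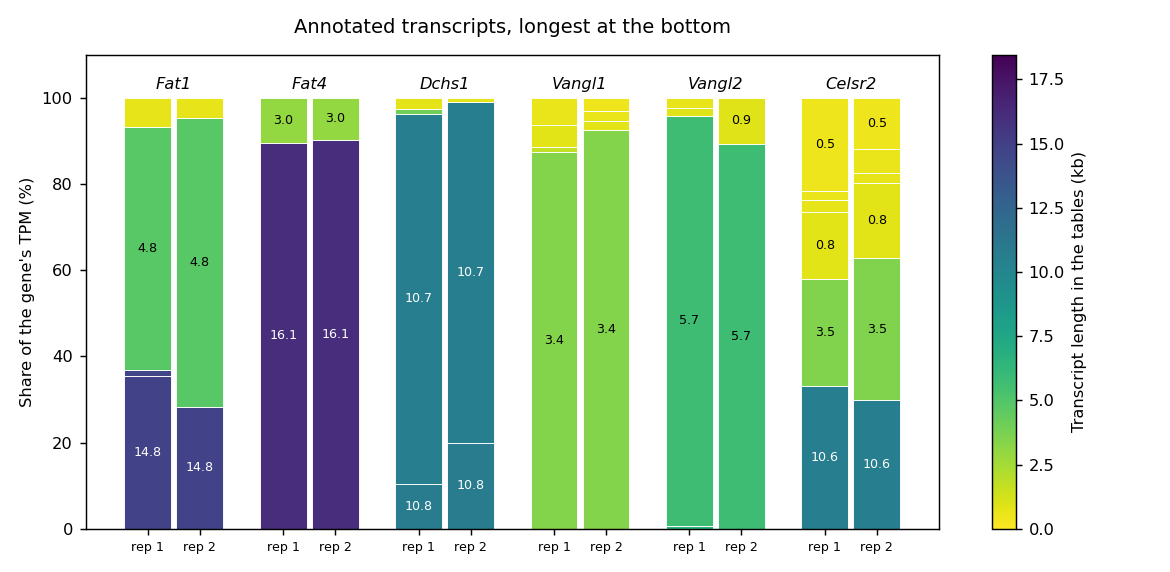
Share of each gene's TPM held by its annotated transcripts in replicate 1 (left bar of a pair) and replicate 2, for the members with several transcripts above the floor and for Celsr2; colour and printed numbers give the transcript length in kb, with the longest at the bottom. The 4.8-kb form fills 56.3% and 67.0% of the Fat1 bars, whereas the full-length form fills 89.6% and 90.2% of the Fat4 bars.

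A further coding form, Fat1-201, begins within exon 2 of Fat1-205 and shares the remainder of the gene with it. Its maximum likelihood estimate was 155 counts in replicate 1 and 0 in replicate 2, while the posterior mean gave it 2.45% of the Fat1 TPM in replicate 1 and 0.66% in replicate 2, so its absence from replicate 2 is not shown. The 60 bases in which the Fat1 forms part are shown together with the like position of Fat2. The capitals AG end the intron and the bases after them open exon 2 of Fat1-205 (chr8:44950166-44950225, plus strand) and exon 2 of Fat2-201 (chr11:55312228-55312287, minus strand). The RefSeq start of Fat1 lies 12 bases after the first base of that exon and the RefSeq start of Fat2 on its first base, so for both genes the RefSeq model opens where a longer GENCODE model has a splice acceptor.
Fat1 exon 2: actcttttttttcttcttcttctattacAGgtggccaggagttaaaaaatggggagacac
Fat2 exon 2: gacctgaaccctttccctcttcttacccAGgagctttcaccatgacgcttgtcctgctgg

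Fat4 (ENSMUSG00000046743.6), the member that pairs with Dchs1 in mammals, lies on chromosome 3, 38886940 to 39011985, plus strand. Its level was 11.1 TPM in replicate 1 and 7.50 TPM in replicate 2 (mean 9.30 ± 2.54 TPM, SD, n = 2), with replicate 1 the higher. The ratio of replicate 1 to replicate 2 was 1.48 (95% interval 1.40 to 1.56). Unlike Fat1, Fat4 had most of its level assigned to its full-length transcript: Fat4-201, of 16109 nt, held 89.6% of its TPM in replicate 1 and 90.2% in replicate 2. Such shares divide reads among the annotated transcripts and do not show that single RNAs were full-length. The remainder, 10.45% in replicate 1 and 9.77% in replicate 2, was Fat4-202, a 2994-nt transcript with a retained intron. The long forms Fat1-205 and Fat1-201 were together at 14.2 TPM in replicate 1 and 6.69 TPM in replicate 2, against 9.93 and 6.77 TPM for Fat4-201, so they were higher in replicate 1 and level in replicate 2. These Fat1 values depend on how reads were divided with the 4770-nt form.

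Fat3 (ENSMUSG00000074505.4), known for its part in shaping neurons of the retina, was low. It lies on chromosome 9, 15910189 to 16501285, minus strand, and its single annotated transcript in the tables is the longest of all members at 18456 nt. Its level was 3.17 TPM in replicate 1 and 1.85 TPM in replicate 2 (mean 2.51 ± 0.933 TPM, SD, n = 2), and the values of the libraries lay on either side of a floor of 2 TPM. Even so it was counted well, with 1134 counts in replicate 1 and 764 in replicate 2, because 1 count in so long a transcript is worth only 0.00279 TPM in replicate 1 and 0.00242 TPM in replicate 2.

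Fat2 (ENSMUSG00000055333.10), known from the cerebellum and, in Drosophila, from a migrating epithelium, lies on chromosome 11, 55250609 to 55336564, minus strand, and was nearly absent. It had 35 counts in replicate 1 and 11 in replicate 2, which gave 0.13 and 0.03 TPM, both under the floor of 1 TPM. The ratio of replicate 1 to replicate 2 from so few counts was 3.67, with a 95% interval of 1.82 to 8.02. The maximum likelihood estimate gave essentially all of it to Fat2-202, at 99.99% in replicate 1, whereas the posterior mean estimate gave that form 54.3% in replicate 1 and 51.7% in replicate 2, so these counts do not settle which form was present.

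Within the Fat family the proportions were close in both libraries, while the sum was not. The 4 genes together reached 52.7 TPM in replicate 1 and 33.1 TPM in replicate 2. Fat1 held 72.7% of that sum in replicate 1 and 71.6% in replicate 2, Fat4 21.1% and 22.7%, Fat3 6.02% and 5.59%, and Fat2 0.247% and 0.0907%. Fat1 stood 3.45-fold above Fat4 in replicate 1 and 3.16-fold in replicate 2. With counts per longest coding transcript, Fat1 held 61.1% in replicate 1 and 57.3% in replicate 2 and stood 2.08-fold and 1.71-fold above Fat4, so the lead of Fat1 was kept and its size depended on the transcript lengths used.

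Dchs1 (ENSMUSG00000036862.10), the ligand of Fat4 in mammals, lies on chromosome 7, 105752990 to 105787654, minus strand. Its level was 15.0 TPM in replicate 1 and 9.89 TPM in replicate 2 (mean 12.5 ± 3.63 TPM, SD, n = 2), again higher in replicate 1, at a ratio of 1.52 (95% interval 1.44 to 1.60). Dchs1-201, of 10651 nt, held 85.9% of it in replicate 1 and 79.0% in replicate 2. A second transcript of 10771 nt, ENSMUST00000144189, held 10.45% in replicate 1 and 20.0% in replicate 2 and is not in M21, which leaves the gene level little changed because both forms are of nearly equal length.

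Fat4 and Dchs1 kept nearly the same proportion in both libraries, which was not particular to this pair. The level of Fat4 was 0.738 of that of Dchs1 in replicate 1 and 0.758 in replicate 2, a mean of 0.748 ± 0.0145 (SD, n = 2). With counts per longest coding transcript it was 0.695 and 0.703. Celsr2 stood 3.51-fold above Celsr1 in replicate 1 and 3.53-fold in replicate 2, whereas the ratio of Vangl2 to Vangl1 changed, from 0.976 to 1.79. Dchs2 (ENSMUSG00000102692.1), whose product also belongs to the Dachsous cadherins, was nearly absent: it lies on chromosome 3, 83127948 to 83357209, plus strand, and had 47 counts in replicate 1 and 31 in replicate 2, or 0.23 and 0.13 TPM. Dchs1 therefore made up 98.5% of the summed Dachsous level in replicate 1 and 98.7% in replicate 2, and stood 65.3-fold above Dchs2 in replicate 1 and 76.1-fold in replicate 2.

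Fjx1 (ENSMUSG00000075012.4), the Golgi kinase, is the shortest member, with 1 exon and a transcript of 3134 nt on chromosome 2, 102449366 to 102452499, minus strand. Its level was 7.78 TPM in replicate 1 and 5.85 TPM in replicate 2 (mean 6.82 ± 1.36 TPM, SD, n = 2), with replicate 1 the higher by a ratio of 1.33 (95% interval 1.16 to 1.52). It stood at 0.702 of the level of Fat4 in replicate 1 and 0.780 in replicate 2. Fjx1 rested on 461 counts in replicate 1 and 400 in replicate 2, fewer than the 1134 and 764 of Fat3, although its level per length was the higher in both libraries.

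Vangl1 and Vangl2 encode membrane proteins of the core planar polarity system and differed in how far the libraries stood apart. Vangl1 (ENSMUSG00000027860.11), on chromosome 3, 102153583 to 102204693, minus strand, was at 15.2 TPM in replicate 1 and 7.20 TPM in replicate 2 (mean 11.2 ± 5.64 TPM, SD, n = 2). Vangl2 (ENSMUSG00000026556.11), on chromosome 1, 172000960 to 172028444, minus strand, was at 14.8 TPM in replicate 1 and 12.9 TPM in replicate 2 (mean 13.8 ± 1.36 TPM, SD, n = 2). The pair was thus level in replicate 1, where Vangl2 was 0.976 of Vangl1, and unequal in replicate 2, where it was 1.79-fold higher. The ratio of replicate 1 to replicate 2 was 2.11 for Vangl1 (95% interval 1.89 to 2.36), the highest of the 8 detected members, and 1.15 for Vangl2 (95% interval 1.07 to 1.24), the lowest. Vangl1 rested on 884 counts in replicate 1 and 504 in replicate 2, and Vangl2 on 1562 and 1475 counts.

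Each of the pair had most of its level assigned to 1 form. Vangl1-202, of 3413 nt in the tables and 3207 nt in M21, held 87.4% of the Vangl1 TPM in replicate 1 and 92.6% in replicate 2. Vangl2-201, of 5698 nt, held 95.2% of the Vangl2 TPM in replicate 1 and 89.3% in replicate 2, and the short coding form Vangl2-204, of 881 nt, 1.82% and 10.7%. The coding sequences of the paralogues are 69.9% identical over 1556 aligned bases and their transcripts share no stretch of 50 bases, so reads that long fall on 1 gene of the pair. These are the coding sequences of Vangl1-201 and Vangl2-201. Vangl1-201 held 1.11% of the Vangl1 TPM in replicate 1 and 0% in replicate 2, and the leading Vangl1-202 has 1179 coding bases in M21, against 1578 in Vangl1-201, and another coding end. The last 36 coding bases are shown as an example, since they encode the end of the protein, where Scribble binds a PDZ motif. The 11 bases that differ are in capitals, and both sequences are read from M21 on the minus strand, Vangl1-201 on chromosome 3 and Vangl2-201 on chromosome 1.
Vangl1 end: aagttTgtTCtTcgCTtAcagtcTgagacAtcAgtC
Vangl2 end: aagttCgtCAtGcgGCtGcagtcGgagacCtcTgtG

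Celsr1 (ENSMUSG00000016028.9), an adhesion receptor with cadherin repeats that bridges neighbouring cells, lies on chromosome 15, 85898929 to 86033777, minus strand, and has 35 exons and a transcript of 11050 nt in the tables. Its level was 6.33 TPM in replicate 1 and 4.85 TPM in replicate 2 (mean 5.59 ± 1.05 TPM, SD, n = 2), on 1353 and 1195 counts, and the ratio of replicate 1 to replicate 2 was 1.31 (95% interval 1.21 to 1.41). Its paralogue Celsr2 stood higher, at 22.2 TPM in replicate 1 and 17.1 TPM in replicate 2, and Celsr3 was nearly absent at 0.04 and 0.13 TPM. Celsr1 held 22.2% of the summed Celsr level in replicate 1 and 22.0% in replicate 2. The level of Celsr2 includes short transcripts, and its 10598-nt form Celsr2-201 held 33.1% of the Celsr2 TPM in replicate 1 and 29.9% in replicate 2. With counts per longest coding transcript, Celsr1 held 39.7% in replicate 1 and 39.9% in replicate 2, and the ratio of Celsr2 to Celsr1 was 1.51 ± 0.00966, against 3.52 ± 0.0143 in TPM (SD, n = 2).

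Length set the members apart from most genes in how their reads relate to their levels. The longest coding transcripts of the 10 members had a median of 10917 nt, against 2464 nt for the gene lengths of detected protein-coding genes, and those of 7 of 10 members reached 10 kb. By abundance-weighted gene length, 6 of 10 members and 211 of the detected protein-coding genes, or 1.67%, reached 8 kb. The members took 0.0623% of the gene counts in replicate 1 and 0.0472% in replicate 2, against 0.0124% and 0.00817% of the gene TPM. The share of counts was thus 5.03 times the share of TPM in replicate 1 and 5.78 times in replicate 2. By counts the order ran Fat1, Fat4, Dchs1, Vangl2, Celsr1, Fat3, Vangl1, Fjx1, Dchs2 and Fat2: Fat4 moved ahead of Vangl2 and Dchs1, and Vangl1 behind Celsr1 and Fat3.

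All 8 detected members were higher in replicate 1. So were 73.0% of the 15075 genes at a mean of 1 TPM or more, and 95.0% of the 221 such genes of 8 kb or more. Under FPKM, TMM and DESeq2 scaling 7 of 8 members were higher there, with Vangl2 the exception. The shares of all genes were then 55.1%, 48.4% and 50.7%, and those of genes of 8 kb or more 82.4%, 77.4% and 80.5%. The median log2((TPM + 1) ratio) of replicate 1 over replicate 2 was 0.53 for the detected members, between 0.19 for Vangl2 and 0.98 for Vangl1, against 0.26 for those 15075 genes. The ratio differed with gene length over all genes, with medians of -0.15 under 1 kb, 0.10 from 1 to 2 kb, 0.40 from 2 to 4 kb, 0.55 from 4 to 8 kb and 0.47 at 8 kb or more. By the same gene length 4 of the 8 detected members, Fat3, Fat4, Dchs1 and Celsr1, reached 8 kb, with a median of 0.53 against the 0.47 of their class (quartiles 0.29 and 0.67). In the class from 4 to 8 kb, with a median of 0.55 (quartiles 0.28 and 0.79), Fat1 was at 0.67 and Vangl2 at 0.19, below the lower quartile. The class of Fat1 rests on its weighted length of 7808 nt, into which the 4770-nt form enters. Set against genes of 8 kb or more, Fat1 at 0.670 lay at the upper quartile of 0.668. From 2 to 4 kb, with a median of 0.40 (quartiles 0.17 and 0.62), Vangl1 was at 0.98, above the upper quartile, and Fjx1 at 0.36. The part of transcript length, RNA quality or embryo in these differences was not tested.

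**Figure D3:**
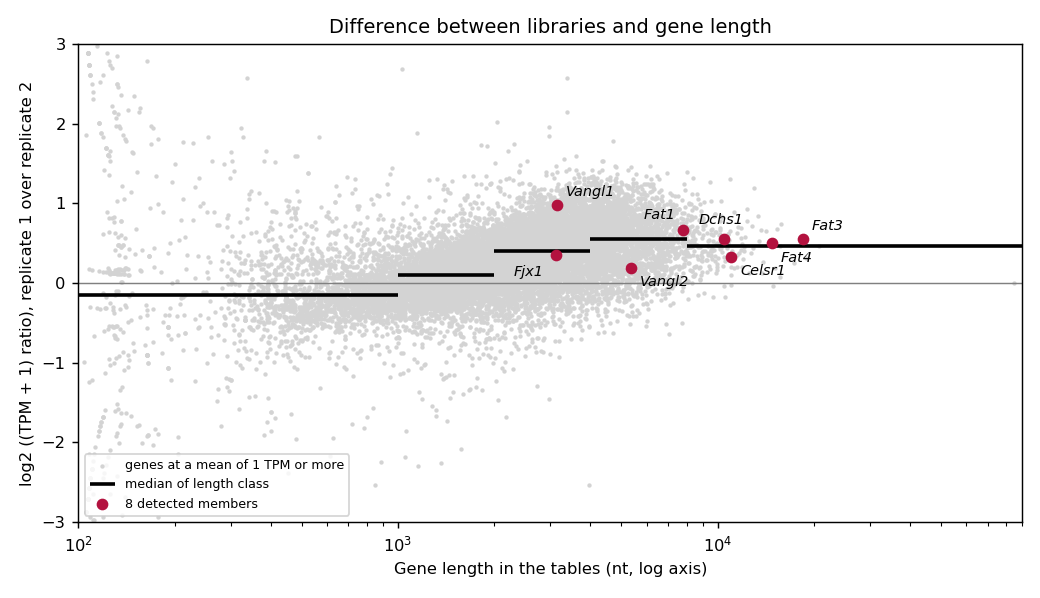
The log2((TPM + 1) ratio) of replicate 1 over replicate 2 against gene length on a log axis, for 15075 genes at a mean of 1 TPM or more (grey, of which 32 lie outside the axes), with the median of each length class as a line and the 8 detected members in red. The members lie above 0, as do most genes over 2 kb, with Vangl1 at 0.98 the highest and Vangl2 at 0.19 the lowest.

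The scale shifts the ratios of genes together, though by less for genes of low level, so the members were also read relative to the median of all genes. That median was 0.26 in TPM, 0.05 in FPKM, -0.02 with TMM library sizes and 0.01 with DESeq2 size factors. Relative to it, Vangl1 stood 0.72 higher in TPM and 0.69 higher with TMM sizes, Fat1 0.41 and 0.38, Dchs1 0.30 and 0.27, Fat3 0.29 and 0.31, and Fat4 0.25 and 0.23. Fjx1 stood 0.10 higher on both scales and Celsr1 0.07 higher on both, whereas Vangl2 lay at -0.07 in TPM and -0.09 with TMM sizes. The 2 members under the floor changed sign: Fat2 lay at -0.12 in TPM and 0.09 with TMM sizes, and Dchs2 at -0.14 and 0.07. On the log2(TPM + 1) scale no member reached an absolute ratio of 1, which 5.54% of the 15075 genes did; without the pseudocount Vangl1, at a TPM ratio of 2.11, and the sparsely counted Fat2 would pass it. The deposited credibility intervals of TPM, which describe the estimate within 1 library, did not overlap between libraries for 8 of 10 members and overlapped for Vangl2 and Dchs2. The same count was not made over all genes, so it cannot be called particular to the members.

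Beyond the members, 4 lists held 49 further genes of planar polarity and the Fat pathway, chosen with earlier results of these data known. Of these, 47 reached 1 TPM in both libraries, with a median level of 13.2 TPM, and Celsr3 and Prickle4 (1.07 and 0.80 TPM) did not. Among all protein-coding genes 59.0% reached it, a share to set beside this count and that of each list. Because the lists were chosen by hand, the counts do not show how complete the pathway was. Among 12 other core genes 10 were detected, at a list median of 8.52 TPM. The Dishevelled genes, which relay the Frizzled signal in the cytoplasm, were led by Dvl2 at 27.3 TPM in replicate 1 and 20.9 TPM in replicate 2, then Dvl3 at 19.8 and 17.8 TPM and Dvl1 at 4.96 and 5.36 TPM. The Frizzled receptors Fzd3 (22.0 and 12.7 TPM) and Fzd6 (12.8 and 4.71 TPM) and the Vangl partner Prickle1 (21.8 and 9.42 TPM) were present, as were Prickle2 (5.79 and 4.32 TPM) and Prickle3 (7.61 and 5.18 TPM).

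All 12 genes of the list of ligands and co-receptors, which also held Scrib and Sec24b, were detected, at a list median of 13.9 TPM. The co-receptor Ptk7 was highest, at 45.5 TPM in replicate 1 and 47.1 TPM in replicate 2. Wnt11, a ligand made at ureteric tips, followed at 34.1 and 30.6 TPM, and Wnt9b of the ureteric stalk was lowest by the mean, at 6.60 and 3.67 TPM. All 13 effectors were detected, at a list median of 12.3 TPM, with Intu, of cilium assembly, lowest at 3.80 TPM in replicate 1 and 1.97 TPM in replicate 2. All 12 partners of Fat and Dachsous were detected, led by the actin regulator Vasp at 42.6 and 42.3 TPM and the co-repressor Rere at 38.4 and 23.2 TPM, with Lix1l lowest by the mean, at 3.78 and 4.31 TPM. The mean levels of 7 detected members lay above that of Intu, the lowest of the 47 at 2.89 TPM, and Fat3 lay below it.

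Between the libraries, 41 of the 47 detected pathway genes were higher in replicate 1 in TPM, beside 73.0% of the 15075 genes, at a median log2((TPM + 1) ratio) of 0.37. The count was 28 of 47 with TMM sizes, beside 48.4%, and 29 of 47 in FPKM, beside 55.1%. An absolute log2((TPM + 1) ratio) of 1 was reached by 3 of the 47, Fzd6 at 1.27, Prickle1 at 1.13 and the heparan sulphate proteoglycan Gpc4 at 1.18, the last named after its values were seen. That share is near the 5.54% of the 15075 genes.

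**Figure D4:**
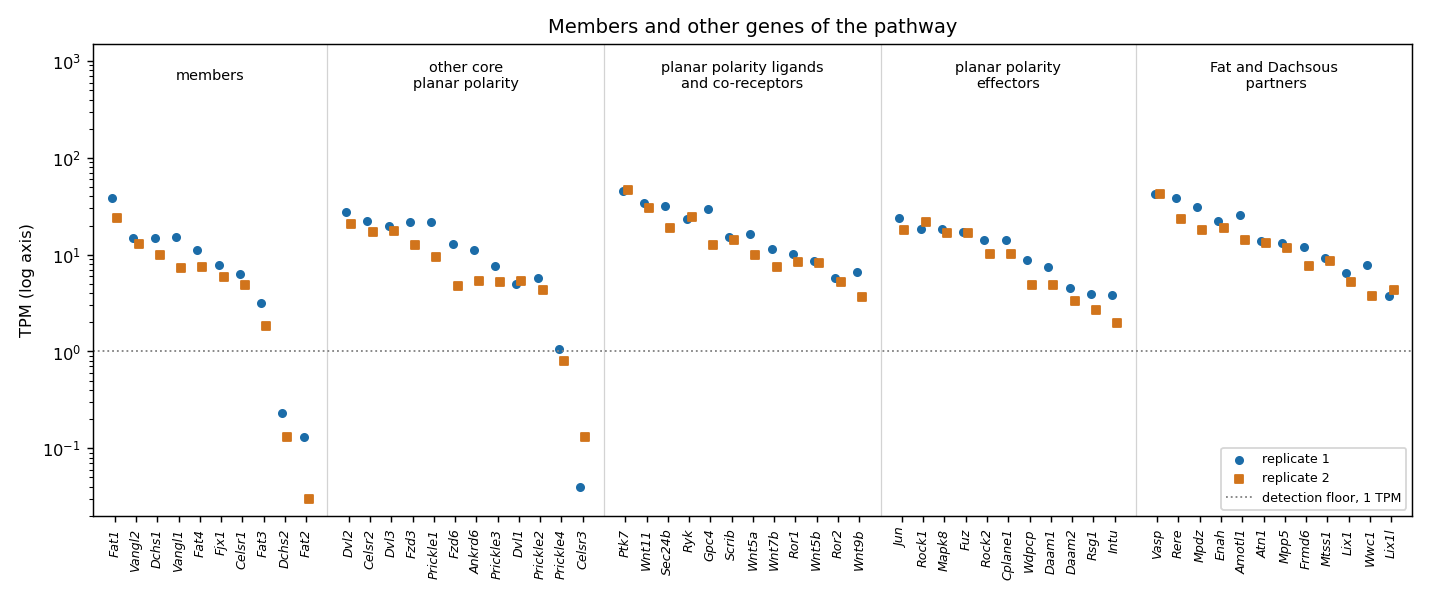
TPM on a log axis of the 10 members and of further genes in 4 lists (2 effectors are not shown), each list in descending order of mean level, with replicate 1 as circles, replicate 2 as squares and the floor of 1 TPM dotted. The members from Fat1 to Celsr1 lie among the genes of the other lists, and Dchs2, Fat2 and Celsr3 lie lowest.

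Few bases of the members were shared with other genes. Expected counts were whole numbers in both libraries for 7 of 10 members, and were not for Fat1, Fat4 and Dchs1, each of which overlaps a counted gene on the opposite strand. Dchs2 and Vangl1 also overlap such genes, with at most 3 counts a library, and had whole counts. The partners were small: Gm2366 in Fat1 had 110 counts in replicate 1 and 77.9 in replicate 2, C230034O21Rik at the start of Fat4 had 118 and 84.8, and Gm15645 in Dchs1 had 24.2 and 28.8. Stretches of 50 bases shared with another gene made up 2.69% of Fat1-205, 8.39% of Fat4-201, 4.31% of Dchs1-201 and 11.6% of Dchs2-201 in M21, all on the opposite strand. Vangl2-202 shared 0.108% of its stretches on the same strand, most of them with Zeb2. No source used here says if counting was by strand. The fractions of the counts of Fat1, Fat4 and Dchs1 are completed to whole counts by those of their partners in both libraries. In replicate 1, for example, Fat1 had 6055.21 counts and Gm2366 109.79. Reads were thus divided between genes on opposite strands, and those of a member and of its antisense partner cannot be told apart there. No member shared a 50-base stretch with another member.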

How the data were processed

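Total RNA of E14.5 kidney was sequenced in 2 libraries, biological replicates 1 and 2 per the labels, with 29718428 and 29204212 expected counts. Per the labels' protocols, RNA was extracted with a mirVana kit and the linked general protocol is Smart-seq. Reads were quantified by the submitters on mm10, per the labels; the program that did so is not given in the sources used. The text files deposited beside the tables name GENCODE release M4. Per the file headers the deposited tables hold expected counts, TPM, FPKM, bounds of a credibility interval of TPM (a signal on the TPM scale) and isoform percent, as maximum likelihood and posterior mean estimates.

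Symbols, coordinates and exons came from GENCODE M21 on GRCm38, the assembly of mm10 but another release; 42462 of 43346 genes matched, and 24 of 32 member transcripts had the same length there. Sequences are from M21 and from RefSeq (GRCm38.p6), in which 6 of 10 members have a start window. Features that name no gene, including 96 spike-ins, held 4.34% and 4.95% of the counts.

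The members and gene lists were chosen with earlier results of these data known. All 10 members are named, as are all adrenal and gonad markers. Of the other lists the 2 highest and the lowest genes and all Celsr, Fzd, Dvl and Prickle genes are named. Member transcripts at 10% or more of their gene are named too. The 2 highest effectors are not reported here. Ratios between libraries were taken as log2((TPM + 1) ratio), which understates differences of low genes; intervals are exact conditional binomial 95% intervals of counts, for counting error only, as reads carry no molecular identifiers used here. With 2 samples of 1 group nothing was tested. Levels per longest coding transcript were added after seeing the data. Expected counts were rounded to whole numbers for the scaling factors of edgeR 4.0.16 (TMM) and DESeq2 1.42.0 in R 4.3.3, which were used for no test. Other tools were Biopython 1.88 for alignment, scipy 1.17.1 for intervals, matplotlib 3.10.9, pandas 2.3.3 and numpy 2.4.6 in Python 3.11.15. Only the length classes and the log2 ratio were tested on simulated counts.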

Additional observations from a re-analysis of the deposited data

How the results depend on the processing

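The count of detected members was 8 under every alternative except a floor of 2 TPM, where it was 7, without Fat3. The median log2 ratio of the detected members, 0.53 in TPM, was 0.31 in FPKM, 0.24 with TMM sizes and 0.26 with DESeq2 size factors, and exceeded the median of genes of 8 kb or more by 0.059. Under those scalings 55.1%, 48.4% and 50.7% of all genes were higher in replicate 1. Counts per longest coding transcript gave Fat1 59.2%, Fat4 31.5% and Celsr1 39.8% of their families, a mean level of 16.4 for Fat1 and 11.3 for Vangl2, whose 6528-nt form was rare. With protein-coding transcripts only, Dchs1 held 98.3% and Celsr1 32.0%; with posterior mean TPM Celsr1 held 21.04%. Posterior mean isoform percent gave Vangl1-202 78.7% and Vangl2-201 85.4%, and without mitochondrial, haemoglobin and spike-in features Vangl2 stood at 16.2 TPM. The cause of the posterior mean differences was not tested; the other alternatives change lengths, transcripts or scale by construction. The members' median kept its sign under the alternatives run. No paired analysis was possible because there is only 1 group. With 11 to 47 counts a library, depth limits the ratios between libraries of Fat2 and Dchs2 and the transcript shares of Fat2. In replicates 1 and 2, 1 count was worth 0.0036 and 0.0031 TPM for Fat2 and 0.0048 and 0.0042 TPM for Dchs2. These values lie far under the floor of 1 TPM.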
